A study of Mus musculus with 8 samples.

Results

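The potassium channel genes of the mouse peripheral retina were taken as every gene symbol in the count files that starts with Kcn, without the glial inward rectifier Kcnj10. This gave 94 genes of 23284 in the files. By symbol they fell into 40 voltage-gated alpha subunits, 14 inward rectifiers, 14 two-pore channels, 8 calcium-activated and related Slo channels, 16 beta and other auxiliary subunits, and 2 others. Of the 94 genes, 74 passed a filter on low counts and were tested, and the remaining 20 are given at the end by their counts. The RNA came from microdissected peripheral retina of mice at postnatal day 12, in 2 groups of 4 libraries. The libraries labelled TET-MYCN came from retina with Cre driven by the alpha enhancer of Pax6, a Cre-dependent transactivator at Rosa26 (LSL-RTTA) and a tetracycline-regulated MYCN transgene (TRE-MYCN). Their genotype label also calls them Rb null, and the series title gives them the floxed Rb alleles, which the design text does not repeat. The Rb null libraries came from retina with the same Cre and floxed Rb alleles and no MYCN transgene. All 8 libraries thus share the Cre and, per these labels, the loss of Rb, and none is a wild-type retina. The Pax6 enhancer is active in only part of the retina, and the tissue can hold cells without Cre. Whether doxycycline was given is not stated in the labels used here.

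Potassium channels set the resting potential of retinal cells and end their depolarizations. Voltage-gated channels are tetramers of alpha subunits that open on depolarization, and beta subunits change how they gate and where they go. Inward rectifiers and two-pore channels hold the resting potential, and calcium-activated channels link it to calcium entry. In rods and cones, the silent subunit Kcnv2 takes part in the current that trims the light response, and loss of human KCNV2 causes a cone dystrophy with altered rod responses. Kcnk2 encodes TREK-1, a leak channel opened by membrane stretch, lipids and heat. Kcne2 encodes a small single-pass subunit that can join several voltage-gated alpha subunits.

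Promoter windows from RefSeq (build GRCm38.p6, 250 bases before to 50 after a start site, 5′ to 3′ on the gene's strand) are shown for the 4 genes on which most of the values below turn. Kcnk2 and Kcnn4 had the largest positive log2 fold changes of the family, Kcne2 is placed in the family beside Kcnk2, and Kcng4 had the largest negative one. Capitals mark the E-box CACGTG, the motif of MYC proteins, or TAATCC, a motif of the photoreceptor homeobox factors CRX and OTX2, searched on both strands. These motifs share no overlap in the windows shown.
Kcnk2, chr1:189402224-189402523, minus strand: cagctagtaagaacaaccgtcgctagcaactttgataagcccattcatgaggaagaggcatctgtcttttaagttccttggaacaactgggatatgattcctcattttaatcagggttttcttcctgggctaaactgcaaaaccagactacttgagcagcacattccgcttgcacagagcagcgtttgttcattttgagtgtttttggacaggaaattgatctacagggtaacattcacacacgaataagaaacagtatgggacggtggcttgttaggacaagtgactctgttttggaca
Kcnn4, chr7:24370013-24370312, plus strand: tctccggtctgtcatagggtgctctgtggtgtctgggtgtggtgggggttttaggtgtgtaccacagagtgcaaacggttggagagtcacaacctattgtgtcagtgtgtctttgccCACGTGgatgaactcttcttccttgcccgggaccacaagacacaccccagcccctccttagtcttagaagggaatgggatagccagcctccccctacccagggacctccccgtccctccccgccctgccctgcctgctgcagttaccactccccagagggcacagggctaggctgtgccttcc
Kcne2, chr16:92292139-92292438, plus strand: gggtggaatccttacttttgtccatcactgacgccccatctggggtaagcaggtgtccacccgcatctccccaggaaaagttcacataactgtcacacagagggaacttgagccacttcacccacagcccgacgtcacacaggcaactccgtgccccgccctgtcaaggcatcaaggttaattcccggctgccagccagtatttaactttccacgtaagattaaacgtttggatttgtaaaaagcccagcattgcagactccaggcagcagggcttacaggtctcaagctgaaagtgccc
Kcng4, chr8:119635631-119635930, minus strand: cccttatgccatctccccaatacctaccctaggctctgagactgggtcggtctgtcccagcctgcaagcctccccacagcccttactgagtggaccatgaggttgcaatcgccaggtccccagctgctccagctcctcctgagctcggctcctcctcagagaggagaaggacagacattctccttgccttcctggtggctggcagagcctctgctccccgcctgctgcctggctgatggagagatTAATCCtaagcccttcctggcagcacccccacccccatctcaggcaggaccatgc
The Kcnn4 window holds 1 CACGTG whose first base lies 133 bases before the start site, and the Kcng4 window holds 1 TAATCC whose first base lies 5 bases before it. The table has 4 windows for Kcnk2 and 2 for Kcne2, the first of each is printed, and 0 of them holds either motif. Of all 32851 windows in the table, 7.15% hold CACGTG and 7.06% hold TAATCC. Windows were found for 69 of the 94 genes. Among their 94 windows, 7 (7.45%) hold CACGTG, in Kcnab1, Kcne4, Kcnh4, Kcnj2, Kcnk5 and Kcnn4, and 3 (3.19%) hold TAATCC, in Kcng4, Kcnj9 and Kcnrg. A match is a run of letters and was not tested as a binding site.

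Gene counts per library ran from 16166000 to 22873979 in the TET-MYCN group and from 14872131 to 20007977 in the Rb null group. Before TMM scaling, 3 counts thus correspond to 0.131 to 0.202 counts per 1000000 gene counts. The CPM of genes given below are TMM-scaled counts per 1000000 counts. Mouse Mycn was at 242 ± 37.6 CPM across TET-MYCN and 231 ± 94.96 CPM across Rb null libraries, and Rb1 at 154 ± 23.6 CPM across TET-MYCN and 161 ± 21.9 CPM across Rb null libraries (SD, n = 4 each). Neither gene differed past the threshold, and neither is a firm check: reads of the transgene may not be counted under Mycn, and most exons of Rb1 can stay in a recombined allele. Every gene on the marker lists of retinal classes had reads. The summed level of 8 rod genes was 5843, 4440, 5233 and 2379 CPM across TET-MYCN libraries 1 to 4, against 7803, 3447, 15920 and 11960 CPM across Rb null libraries 1 to 4. All 8 were negative in log2 fold change, and their median was -1.24. The 8 bipolar genes ranged from 239 to 366 CPM across TET-MYCN and 314 to 847 CPM across Rb null libraries, and 7 lens genes from 8.70 to 38.5 CPM across TET-MYCN and 14.9 to 385 CPM across Rb null libraries. Rb null 3 and 4 were thus rich in rod and bipolar transcripts, and Rb null 2 lay inside the TET-MYCN range for rods. In bulk tissue, fewer cells of a type and less RNA per cell cannot be told apart.

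Of the 74 tested potassium channel genes, 1 rose in TET-MYCN libraries, Kcnk2, and 0 fell, at an adjusted p under 0.05 (edgeR's quasi-likelihood test with Benjamini-Hochberg adjustment across 15106 genes). Among all genes tested, 0.053% were called as higher and 0.00662% as lower. More of the family had the opposite sign to Kcnk2: 27 genes had a positive and 47 a negative log2 fold change, TET-MYCN over Rb null, with a median of -0.26. Over all genes tested the median was 0.01, and 52.2% were positive and 47.8% negative. A log2 fold change over 1 was seen for 3 members (Kcnn4, Kcnk2 and Kcnh4) and under -1 for 6, among them Kcng4, Kcnj14, Kcnh6, Kcng1 and Kcne2, against 1.64% and 1.09% of all genes. At an unadjusted p under 0.05, 5 members were higher and 21 (28.4% of the 74) lower, where 8.06% of all genes were higher and 7.72% lower. DESeq2, an alternative test, called 2 members higher and 6 lower, but it called far more genes in all, 530 against 9 with edgeR (2.14% of all genes as higher and 1.37% as lower). With limma-voom 0 members were called, and 0 of all genes. Groups of 4 that did not overlap were seen for 2 members as higher and 9 as lower, against 4.36% and 3.29% of all genes. The count of 21 was 12 without Rb null 3, where 3.89% of all genes were lower at that p, and 13 without Rb null 2 and 3, where 4.29% were. The part of cell make-up in these counts was not tested.

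**Figure D1:**
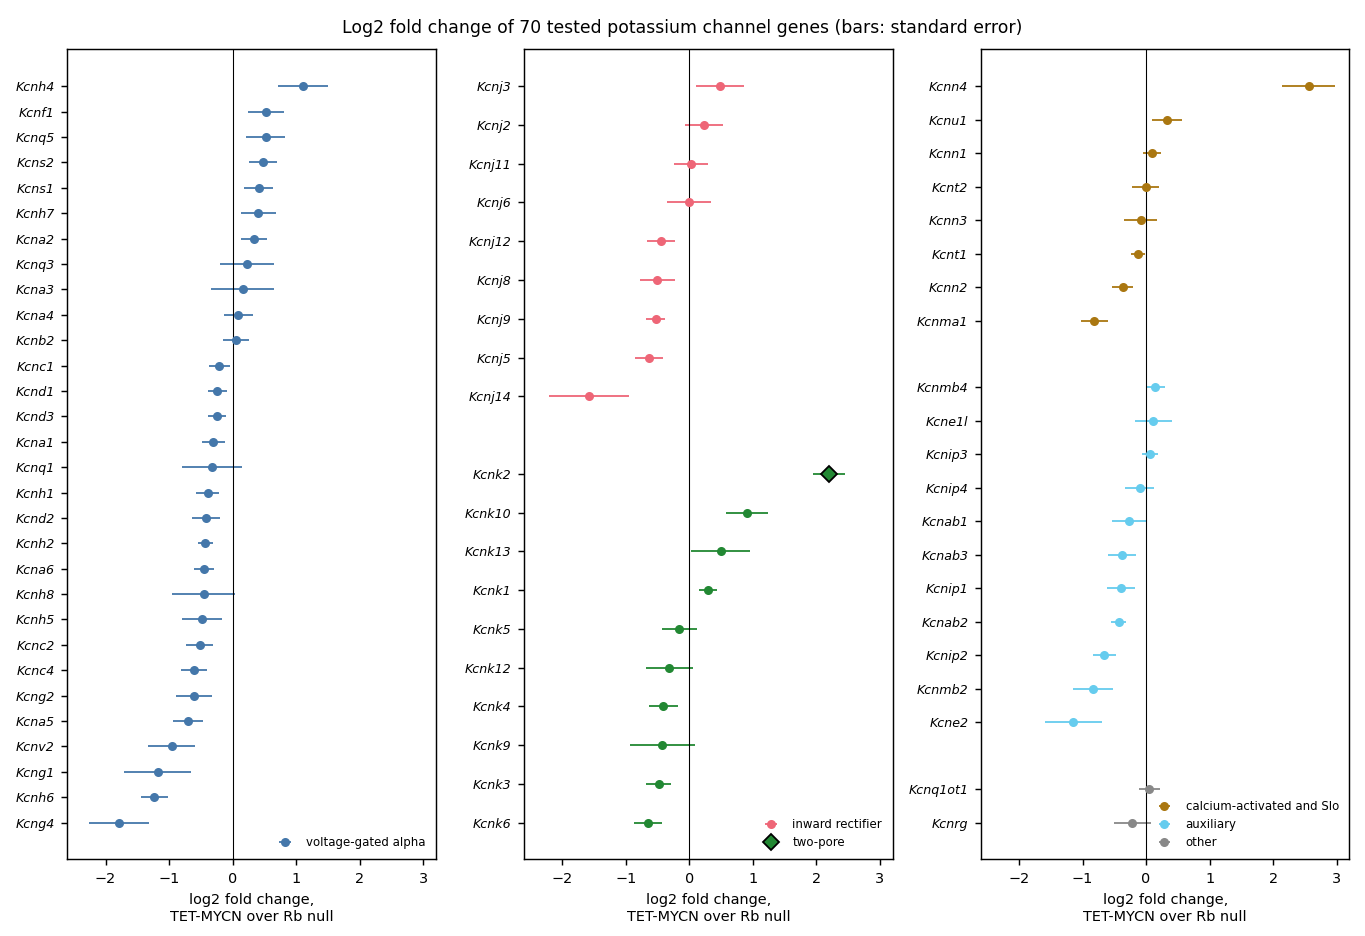
Log2 fold change (x axis, TET-MYCN over Rb null, with its standard error) of 70 of the 74 tested potassium channel genes (y axis), coloured by class. The diamond with a black edge is Kcnk2, the 1 gene called at an adjusted p under 0.05. Kcnn4 lies further right at 2.56 and Kcng4 furthest left at -1.78.

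Among the 14 two-pore channel genes, which encode leak channels, Kcnk2 was the 1 gene called. Kcnk2 was at 15.3, 19.2, 9.11 and 17.2 CPM across TET-MYCN libraries 1 to 4, against 3.36, 3.89, 2.56 and 3.43 CPM across Rb null libraries 1 to 4. The groups do not overlap, and even the lowest TET-MYCN library, number 3, was above every Rb null library. Kcnk2 averaged 15.2 ± 4.37 CPM across TET-MYCN and 3.31 ± 0.554 CPM across Rb null libraries (SD, n = 4 each), a 4.59-fold difference with a log2 fold change of 2.20 ± 0.25 (± is the standard error; adjusted p = 0.0301, edgeR). By p it ranked 1 of the 74 members and 2 of all 15106 genes. The fold change kept its size in 18 alternative settings, between 2.06 and 2.38, while its adjusted p ranged from 5.76e-13 to 0.484 and passed in 10 of them. Its call was lost with limma-voom (adjusted p = 0.0979), without any 1 of Rb null 1 to 4 and TET-MYCN 1 and 4 (adjusted p of 0.0787 to 0.158), and without Rb null 2 and 3 together (0.484). An antisense transcript, A430027H14Rik, shares 12.2% of the exon bases of Kcnk2 on the other strand, and reads of the pair cannot be told apart where strand was not used.

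The closest relatives of Kcnk2 were lower in level and were not called. Kcnk10, which encodes TREK-2, was at 2.16, 1.13, 0.956 and 1.56 CPM across TET-MYCN libraries and 0.815, 1.03, 0.655 and 0.538 CPM across Rb null libraries. Its groups overlap, with a log2 fold change of 0.91 ± 0.33 (edgeR, adjusted p = 0.243). Kcnk4, which encodes TRAAK, was at 1.48, 1.64, 1.35 and 2.22 CPM across TET-MYCN libraries and 2.14, 2.07, 1.97 and 2.76 CPM across Rb null libraries. Its groups overlap at TET-MYCN 4 and the log2 fold change was -0.41 ± 0.23 (adjusted p = 0.418). Per kilobase of exon, the scale on which genes are compared, Kcnk2 stood at 3.08 CPM across TET-MYCN and 0.669 CPM across Rb null libraries. That placed it 27 of the 94 genes in TET-MYCN and 55 in Rb null libraries, and, among the 14 two-pore genes, 3 in TET-MYCN and 6 in Rb null libraries. Kcnk10 was at 0.165 CPM per kilobase in TET-MYCN and 0.0867 in Rb null libraries, and Kcnk4 at 0.375 in TET-MYCN and 0.4999 in Rb null libraries.

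The rest of the two-pore class had fold changes of both signs, all under 1 in size on the log2 scale. Kcnk1, which encodes TWIK-1, was the highest of the class per kilobase, at 25.8 CPM across TET-MYCN and 21.1 CPM across Rb null libraries, with a log2 fold change of 0.29 ± 0.14 (edgeR, adjusted p = 0.357). TET-MYCN 4 was apart from its group for Kcnk1, at 75.8 CPM against 49.3 to 53.1 CPM in the other 3. Kcnk3, which encodes the acid-sensitive leak channel TASK-1, was at 28.2, 33.3, 39.7 and 21.5 CPM across TET-MYCN and 39.2, 34.8, 47.8 and 49.9 CPM across Rb null libraries (log2 fold change -0.48 ± 0.19, adjusted p = 0.268). These groups overlap at TET-MYCN 3. Kcnk6, which encodes TWIK-2, had groups that do not overlap, at 1.86 to 2.47 CPM across TET-MYCN and 2.83 to 4.68 CPM across Rb null libraries (-0.65 ± 0.22, adjusted p = 0.227). The TASK gene Kcnk9, the TALK gene Kcnk5 and the THIK genes Kcnk12 and Kcnk13 had log2 fold changes of -0.42, -0.15, -0.31 and 0.49, none past the threshold. Over the 10 tested two-pore genes the median log2 fold change was -0.23, with 4 positive and 6 negative.

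**Figure D2:**
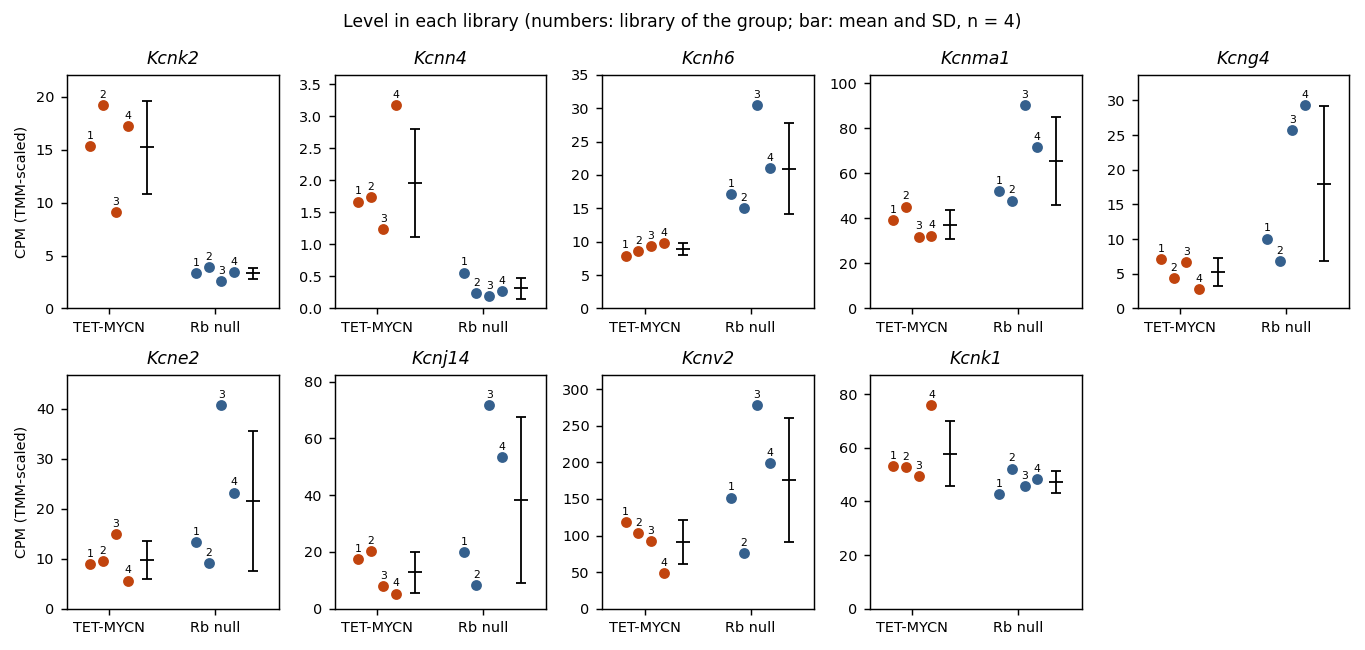
TMM-scaled CPM (y axis, from 0) of 9 potassium channel genes in each library, TET-MYCN left and Rb null right, with library numbers beside the points and the mean and SD of 4 libraries as a bar. Kcnk2 and Kcnn4 are higher and Kcnh6 and Kcnma1 lower in all 4 TET-MYCN libraries, while Kcng4, Kcne2, Kcnj14 and Kcnv2 overlap and are highest in Rb null 3 or 4.

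Calcium-activated and Slo channel genes held the member with the largest positive fold change and, on the lower side, a member whose groups do not overlap. Kcnn4 encodes the intermediate-conductance channel of red cells, T cells and microglia. It was at 1.67, 1.73, 1.24 and 3.17 CPM across TET-MYCN libraries 1 to 4, against 0.560, 0.243, 0.197 and 0.269 CPM across Rb null libraries 1 to 4. All TET-MYCN libraries were above all Rb null libraries, on 152 reads in TET-MYCN and 22 reads in Rb null libraries in all. The log2 fold change was 2.56 ± 0.42 (edgeR, adjusted p = 0.0787), and the gene passed the low-count filter through its TET-MYCN libraries. Over 18 alternative settings it ranged from 2.18 to 3.16 and passed in 4. Among 6 microglia and macrophage markers 3 had a positive and 3 a negative log2 fold change, and their summed level was 152 to 282 CPM across TET-MYCN and 135 to 291 CPM across Rb null libraries. The macrophage protease gene Mmp12, 1 of the 6, was called as higher (edgeR, adjusted p = 0.0348), at 15.0 ± 10.04 CPM across TET-MYCN and 0.151 ± 0.0328 CPM across Rb null libraries, with 10 reads in all in Rb null libraries. The part of these cells in the level of Kcnn4 was not tested.

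Kcnma1, which encodes the large-conductance BK channel, was at 39.3, 45.2, 31.9 and 32.3 CPM across TET-MYCN libraries and 52.0, 47.8, 90.3 and 71.6 CPM across Rb null libraries. No TET-MYCN library reached an Rb null one, although TET-MYCN 2 and Rb null 2 were close, and the log2 fold change was -0.81 ± 0.21 (edgeR, adjusted p = 0.164). Kcnmb2 and Kcnmb4, which encode BK beta subunits, had log2 fold changes of -0.84 ± 0.32 and 0.14 ± 0.15 (adjusted p = 0.258 and 0.696). The small-conductance genes Kcnn1, Kcnn2 and Kcnn3 were at 0.09 ± 0.14, -0.37 ± 0.16 and -0.08 ± 0.26. Kcnt1 and Kcnt2, which encode sodium-activated Slo channels, were at -0.13 ± 0.11 and -0.01 ± 0.21, with Kcnt2 at 0.0029 when scaled by total counts alone. Kcnu1, the Slo gene known from sperm, was at 0.33 ± 0.24 and averaged 2.66 ± 0.801 CPM across TET-MYCN and 2.11 ± 0.0738 CPM across Rb null libraries. None of the 8 genes named after Kcnma1 passed the threshold, and the median over the 8 calcium-activated and Slo genes was -0.05.

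Voltage-gated alpha subunits were more often negative than positive, with 13 positive and 21 negative log2 fold changes over 34 tested genes. Their median was -0.31, but 0 passed the threshold (edgeR). With an unadjusted p under 0.05, 2 were higher and 10 lower, where 8.06% of all genes were higher and 7.72% lower. Limma-voom called 0, as for all genes, and DESeq2 called 3 lower, where it called 1.37% of all genes as lower. Kcnh6 encodes an ERG-type channel. It was at 7.91, 8.57, 9.39 and 9.77 CPM across TET-MYCN libraries, against 17.1, 15.1, 30.5 and 21.1 CPM across Rb null libraries. Every TET-MYCN library was below every Rb null library. Within the Rb null group Kcnh6 was lowest in Rb null 2 and highest in Rb null 3, as the summed level of rod genes was. The part of cell make-up in the level of Kcnh6 was not tested. The log2 fold change was -1.23 ± 0.21 (edgeR, adjusted p = 0.0872), between -1.36 and -0.99 over 18 alternative settings, and passed in 2 of them. Kcnh2, which encodes the ERG channel also known from heart, was likewise lower in every TET-MYCN library, at 58.4 to 73.6 CPM against 77.3 to 98.1 CPM across Rb null libraries (-0.43 ± 0.12, adjusted p = 0.17). The third ERG gene, Kcnh7, was at 0.41 ± 0.28. Kcnh4, an ELK-type gene, was at 2.47, 1.34, 1.124 and 3.07 CPM across TET-MYCN and 1.12, 1.28, 0.524 and 0.740 CPM across Rb null libraries (1.11 ± 0.40, adjusted p = 0.241). Its groups overlap at TET-MYCN 3. The EAG genes Kcnh1 and Kcnh5 were at -0.39 and -0.48 and the ELK gene Kcnh8 at -0.45.

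Kcnv2, a silent subunit of photoreceptors, was high in level and varied widely within the Rb null group. It was at 119, 103, 92.4 and 49.2 CPM across TET-MYCN libraries, against 152, 76.1, 278 and 199 CPM across Rb null libraries. Rb null 3 and 4 were highest and Rb null 2 lay among the TET-MYCN libraries, so the groups overlap. The log2 fold change was -0.95 ± 0.37 (edgeR, adjusted p = 0.261), and -0.65 without Rb null 3. By level per kilobase Kcnv2 was 6 of the 94 genes in TET-MYCN and 2 in Rb null libraries, at 17.8 CPM across TET-MYCN and 34.5 CPM across Rb null libraries. Kcnb2, a delayed rectifier alpha gene, was at 0.456 CPM per kilobase in TET-MYCN and 0.438 in Rb null libraries, with a log2 fold change of 0.06 ± 0.21.

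Other silent subunits, which act only in heteromers, had fold changes of both signs. Kcng4 was at 7.11, 4.33, 6.69 and 2.82 CPM across TET-MYCN libraries and 10.1, 6.80, 25.8 and 29.3 CPM across Rb null libraries. Only Rb null 2, at 6.80 CPM, lay inside the TET-MYCN range, and the log2 fold change of -1.78 ± 0.48 was the lowest of the family (edgeR, adjusted p = 0.164). Kcng1 and Kcng2 were at -1.18 ± 0.53 and -0.61 ± 0.28, while Kcnf1, Kcns1 and Kcns2 were at 0.52 ± 0.29, 0.41 ± 0.23 and 0.48 ± 0.22. None of these passed the threshold.

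Axonal and fast-firing channel genes had smaller fold changes. All 4 genes of the Kcnc subfamily, which lets neurons fire fast, and all 3 of the Kcnd subfamily, which carries A-type current, had negative log2 fold changes. In the Kcnc subfamily they ran from -0.61 ± 0.21 (Kcnc4) to -0.21 ± 0.17 (Kcnc1), and in the Kcnd subfamily from -0.42 ± 0.22 (Kcnd2) to -0.24 ± 0.15 (Kcnd1). Kcnd1 had groups that do not overlap, at 5.34 to 6.92 CPM across TET-MYCN and 7.34 to 7.90 CPM across Rb null libraries. In the Kcna subfamily of axonal and delayed rectifier channels, 3 genes were positive and 3 negative. Kcna5 was at 24.0, 45.6, 40.1 and 21.4 CPM across TET-MYCN and 45.8, 45.7, 60.7 and 61.0 CPM across Rb null libraries, so its groups touch without overlapping (-0.70 ± 0.24, adjusted p = 0.228, edgeR). Kcna2 was at 81.0 ± 25.1 CPM across TET-MYCN and 64.1 ± 5.28 CPM across Rb null libraries (0.34 ± 0.21), Kcna6 at -0.45 ± 0.15 and Kcna1 at -0.30 ± 0.18. Kcna3 and Kcna4 were at 0.16 and 0.09.

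The Kcnq subfamily, which carries the slow M-current of neurons, was the voltage-gated subfamily with most genes on the positive side, 4 of 5. Kcnq5, Kcnq3 and Kcnq1 were at 0.52 ± 0.31, 0.23 ± 0.43 and -0.32 ± 0.47. TET-MYCN 3 was far below its group for Kcnq3 (0.787 CPM against 3.58 to 4.08 CPM), Kcna3 (1.07 against 6.36 to 10.2 CPM) and Kcnk9 (0.281 against 1.46 to 2.81 CPM).

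**Figure D3:**
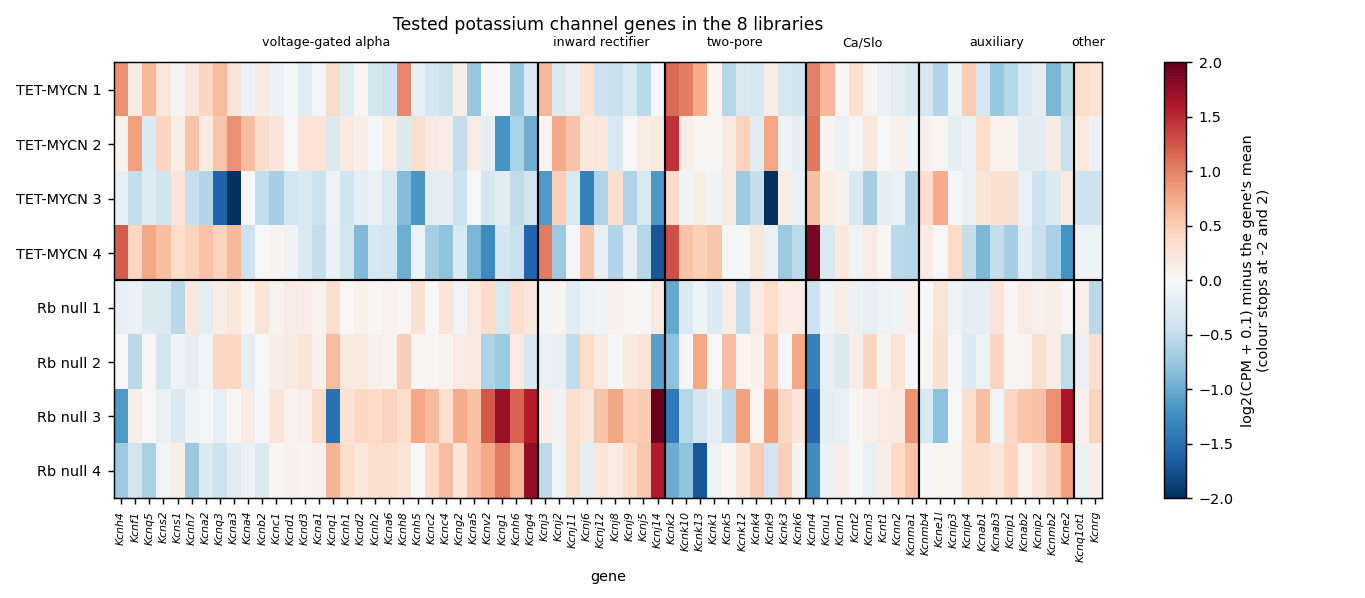
The same 70 tested potassium channel genes (x axis, ordered by class and by fold change within it) in the 8 libraries (y axis), as log2(CPM + 0.1) minus the gene's mean over libraries, where red is above and blue below that mean. Kcnk2 and Kcnn4 are red in the TET-MYCN libraries, the block Kcnv2, Kcng1, Kcnh6 and Kcng4 is reddest in Rb null 3 and 4, and TET-MYCN 3 is blue for Kcnq3, Kcna3 and Kcnk9.

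Inward rectifier genes were also more often negative, with 3 positive and 6 negative log2 fold changes over 9 tested genes. Their median was -0.45, and 0 passed the threshold (edgeR). With an unadjusted p under 0.05, 0 were higher and 3 lower, where 8.06% of all genes were higher and 7.72% lower. DESeq2 called 0, and limma-voom called 0, as for all genes. Kcnj14 encodes a strong rectifier of the Kir2 group. It was at 17.6, 20.3, 7.93 and 5.34 CPM across TET-MYCN libraries 1 to 4, against 20.01, 8.32, 71.6 and 53.4 CPM across Rb null libraries 1 to 4. Rb null 3 and 4 were several times above the rest and the other 6 libraries overlap, and the log2 fold change of -1.58 ± 0.63 did not pass (edgeR, adjusted p = 0.275). The G protein-gated genes, whose channels slow firing, had log2 fold changes of both signs. Kcnj9 was lower in every TET-MYCN library, at 24.9, 31.0, 19.95 and 27.4 CPM against 31.5, 35.1, 43.0 and 39.5 CPM across Rb null libraries (-0.53 ± 0.15, adjusted p = 0.184). Kcnj5 had -0.64 ± 0.22, Kcnj6 -0.01 ± 0.35 (0.0022 when scaled by total counts alone) and Kcnj3 0.48 ± 0.38. The Kir2 genes Kcnj12 and Kcnj2 were at -0.45 ± 0.22 and 0.24 ± 0.30. Kcnj8 and Kcnj11, the pore subunits of ATP-sensitive channels, were at -0.50 ± 0.28 and 0.03 ± 0.27. Kcnj8 is known as a pericyte gene, and 7 pericyte and endothelial markers summed to 363 to 508 CPM across TET-MYCN and 449 to 525 CPM across Rb null libraries. Most of that sum was Kdr, which averaged 322 CPM across TET-MYCN and 380 CPM across Rb null libraries. Of the 7 markers, 1 was positive and 6 negative in log2 fold change, with Pdgfrb at -0.34, Rgs5 at -0.23 and Cspg4 at 0.26. The sum is thus no measure of pericytes, and their part in the level of Kcnj8 was not tested.

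Auxiliary subunits had 3 positive and 8 negative log2 fold changes over 11 tested genes, a median of -0.37, and 0 genes past the threshold (edgeR). With an unadjusted p under 0.05, 0 were higher and 4 lower, where 8.06% of all genes were higher and 7.72% lower. DESeq2 called 2 lower, against 1.37% of all genes, and limma-voom called 0, as for all genes. Kcne2 was at 8.96, 9.52, 15.0 and 5.64 CPM across TET-MYCN libraries 1 to 4, against 13.3, 9.17, 40.7 and 23.2 CPM across Rb null libraries 1 to 4. The groups overlap, since Rb null 1 and 2 were below TET-MYCN 3, and Rb null 3 stood highest. Kcne2 averaged 9.77 ± 3.86 CPM across TET-MYCN and 21.6 ± 14.0 CPM across Rb null libraries (SD, n = 4 each), a log2 fold change of -1.14 ± 0.44 (edgeR, adjusted p = 0.263). Over 18 alternative settings it stayed negative, between -1.61 and -0.64, and passed in 0, with an adjusted p of 0.101 to 0.64. The value nearest 0 came without Rb null 3. Within the 74 tested members Kcne2 was 5 from the bottom by fold change and 20 by p, and Kcnk2 was 2 from the top and 1 by p. Per kilobase Kcne2 was 17 of 94 in TET-MYCN and 12 in Rb null libraries, at 5.53 and 12.2 CPM.

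Among the other auxiliary genes the cytoplasmic beta subunit gene Kcnab2 had the highest level after Kcne1l. Kcnab2 was at 129, 138, 146 and 138 CPM across TET-MYCN and 178, 165, 233 and 167 CPM across Rb null libraries. Its groups do not overlap (-0.43 ± 0.12, adjusted p = 0.181, edgeR), and Kcnab1 and Kcnab3 were at -0.27 ± 0.28 and -0.37 ± 0.22. Kcnip2, a calcium-binding partner of Kcnd channels, was also lower in every TET-MYCN library, at 3.02 to 3.58 CPM against 4.38 to 6.23 CPM across Rb null libraries (-0.66 ± 0.18, adjusted p = 0.168). Kcnip1, Kcnip3 and Kcnip4 were at -0.39, 0.07 and -0.10. Kcne1l, a KCNE gene on the X chromosome, was the highest of the whole family per kilobase, at 86.5 CPM across TET-MYCN and 79.97 CPM across Rb null libraries. Its levels overlapped throughout, at 81.4 to 204 CPM across TET-MYCN and 69.5 to 151 CPM across Rb null libraries, with a log2 fold change of 0.11 ± 0.29. Outside the classes, the long noncoding RNA Kcnq1ot1, an imprinted antisense transcript of Kcnq1, had 157 ± 35.4 CPM across TET-MYCN and 151 ± 14.5 CPM across Rb null libraries (0.05 ± 0.16). Kcnrg, which in human cells encodes a regulator of channel assembly, had -0.22 ± 0.29.

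**Figure D4:**
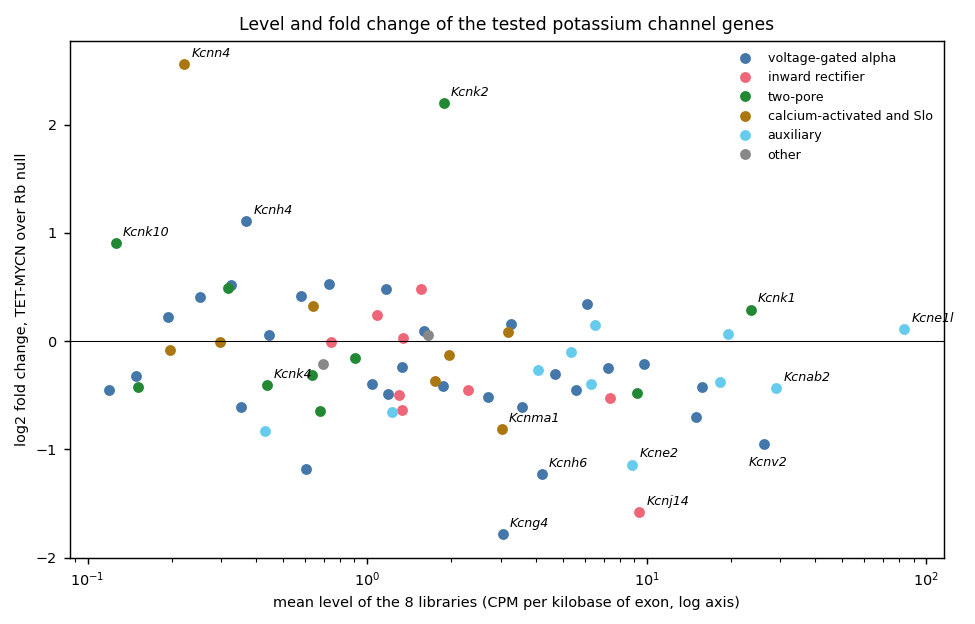
Mean level over 8 libraries in CPM per kilobase of exon (x axis, log scale) against the log2 fold change, TET-MYCN over Rb null (y axis), for the same 70 tested potassium channel genes by class. Kcnk2 sits mid-range in level at 1.87 CPM per kilobase and Kcnn4 low at 0.222, while Kcnv2, Kcne2 and Kcnj14 lie on the negative side at 8.87 CPM per kilobase or more.

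Levels of 4 members, chosen after their values were seen, were extreme in the libraries with the most and the fewest rod transcripts. In the rod-richest library, Rb null 3, Kcnv2, Kcne2 and Kcnj14 were highest of all 8 libraries, and Kcng4 was second to Rb null 4. In the rod-poorest library, TET-MYCN 4, all 4 were lowest. Rb null 2, whose rod sum of 3447 CPM lay inside the TET-MYCN range of 2379 to 5843 CPM, was inside the TET-MYCN range for each of the 4. Kcnk2 was not, since Rb null 2 was at 3.89 CPM, below the 9.11 to 19.2 CPM of the TET-MYCN libraries. Kcnh6 and Kcnma1 were also outside the TET-MYCN range in Rb null 2, at 15.1 and 47.8 CPM. Within the Rb null group both were lowest there and highest in Rb null 3 (30.5 and 90.3 CPM), as the rod sum was. Neither was lowest of its group in TET-MYCN 4 (9.77 and 32.3 CPM). The part of cell make-up in the levels of Kcnh6 and Kcnma1 was not tested. The cone and bipolar sums had the same extremes as the rod sum, so the 3 cell types cannot be told apart here. The 8 cone genes summed to 425 CPM in TET-MYCN 4 (lowest), 1312 CPM in Rb null 3 (highest) and 550 CPM in Rb null 2, inside the TET-MYCN range of 425 to 777 CPM. The 8 bipolar genes summed to 239 CPM in TET-MYCN 4 (lowest), 847 CPM in Rb null 3 (highest) and 314 CPM in Rb null 2, inside the TET-MYCN range of 239 to 366 CPM. All 8 cone and all 8 bipolar genes were negative in log2 fold change (medians -0.87 and -1.20). The 8 markers of progenitors and the ciliary margin were higher in the TET-MYCN group, as Kcnk2 was, and summed to 226, 169, 142 and 341 CPM across TET-MYCN libraries and 98.4, 124, 71.1 and 80.01 CPM across Rb null libraries. All 8 were positive in log2 fold change (median 1.59) and 0 were called. Within the TET-MYCN group their sum was highest in library 4 (341 CPM) and Kcnk2 in library 2 (19.2 CPM). The sum and Kcnk2 were both lowest in library 3 (142 and 9.11 CPM). Zic1 (149.5 CPM) and Hes5 (92.9 CPM) gave most of the sum in library 4. The horizontal and pigment epithelium lists had positive medians too (0.57 and 0.49), with 4 positive and 2 negative genes, and 3 positive and 1 negative. The part of any of these cells in the level of Kcnk2 was not tested.

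**Figure D5:**
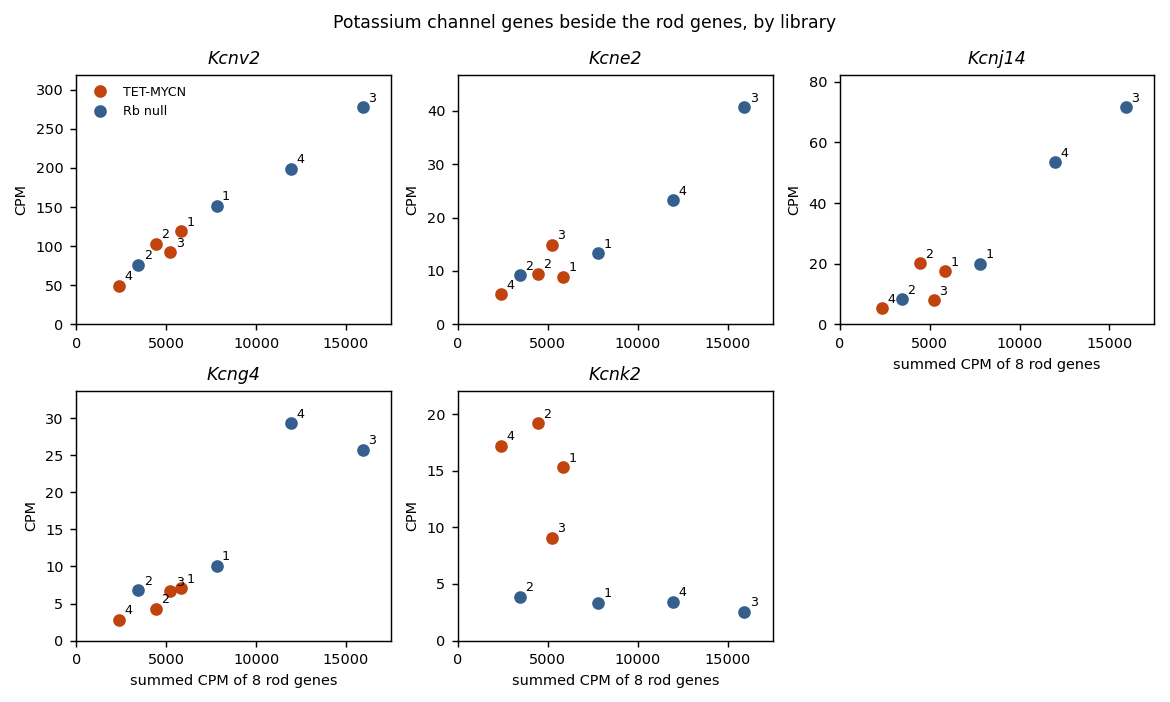
Summed CPM of 8 rod genes (x axis) against the CPM of 5 potassium channel genes (y axis, from 0) in the 8 libraries, with library numbers beside the points. For Kcnv2, Kcne2, Kcnj14 and Kcng4 the highest points are Rb null 3 and 4, at the right. For Kcnk2 the 4 TET-MYCN libraries lie between 9.11 and 19.2 CPM and the 4 Rb null libraries between 2.56 and 3.89 CPM. The rod sums run from 2379 to 5843 CPM in the TET-MYCN and from 3447 to 15920 CPM in the Rb null group, so the groups share only the lower part.

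Genes that work beside potassium channels were also more often negative. Of 26 partner genes (hyperpolarization-activated channels, sulfonylurea receptors, channel-associated proteins, sodium pump subunits and cation-chloride cotransporters) 24 were tested, with 5 positive and 19 negative log2 fold changes and a median of -0.25. At an adjusted p under 0.05, 0 passed in either direction (edgeR), and at an unadjusted p under 0.05, 2 were higher and 10 lower. Of all genes tested, 8.06% were higher and 7.72% lower at that unadjusted p. The potassium-chloride cotransporter gene Slc12a5, which keeps neuronal chloride low, was at 324, 418, 333 and 271 CPM across TET-MYCN and 485, 458, 691 and 603 CPM across Rb null libraries, without overlap (-0.73 ± 0.17, adjusted p = 0.158, edgeR). Atp1b1, a subunit of the sodium pump, was at -0.47 ± 0.17 (edgeR, adjusted p = 0.242). Sodium channel genes (Scn) had a median of -0.49, with 12 of 13 tested negative, and calcium channel genes (Cacn) one of -0.16, with 17 of 24 negative, against 0.01 for all genes tested. In the sodium and calcium channel lists 0 genes passed (edgeR). With an unadjusted p under 0.05, 0 were higher in either list, and 5 sodium and 9 calcium channel genes were lower. These counts stand beside the same shares of all genes, 8.06% higher and 7.72% lower.

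The 20 potassium channel genes that did not pass the low-count filter had at most 22 reads in any library. Kcnk16 had 0 reads in all 8 libraries, and Kcna10, Kcnj1, Kcnk7, Kcnk15, Kcnk18 and Kcnmb3 had at most 4 in any. The others were Kcna7, Kcne1, Kcne3, Kcne4, Kcng3, Kcnh3, Kcnj4, Kcnj13, Kcnj15, Kcnj16, Kcnmb1, Kcns3 and Kcnv1. Kcnj13, an inward rectifier of the pigment epithelium, had 53 reads in the TET-MYCN and 22 in the Rb null libraries in all. It shares 49.1% of its exon bases with Gigyf2 on the other strand, so these reads may belong to either gene. Kcnmb1, a BK beta subunit gene of smooth muscle, had 20 reads in TET-MYCN and 8 in Rb null libraries. None of these 20 genes entered the main test. With no filter on low counts, 93 of the 94 genes were tested and Kcnk2 was again the only member called (edgeR).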

How the data were processed

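RNA was measured by sequencing of oligo-dT selected libraries (NEBNext Ultra, Trizol RNA) from 8 samples of mouse peripheral retina, 4 per group. The authors deposited 1 file a library with raw read counts by gene symbol, without normalization. Per the submitters' processing notes, CASAVA 1.8.2, TopHat2 2.0.8b and HTSeq 0.5.4p3 were used with mm9. The sources used here do not name the options, the annotation or whether strand was used. Rows of the files that name no gene (28.3% to 31.7% of reads) were left out.

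Counts were scaled by TMM and filtered by filterByExpr with the group, and edgeR 4.0.16 (R 4.3.3; estimateDisp, glmQLFit with robust = TRUE, glmQLFTest, group as the only term) was fitted on all 15106 genes kept of 23284, with calls at a Benjamini-Hochberg adjusted p under 0.05. Fold changes are TET-MYCN over Rb null, and the standard error of one is its size over the square root of F. CPM per kilobase used the exon union of each gene in GENCODE M21 (GRCm38), which gave lengths and overlaps and no coordinates, since the counts are on mm9. Alternatives were DESeq2 size factors, total counts, other low-count filters, the newer quasi-likelihood method, DESeq2 1.42.0, limma-voom (limma 3.58.1), the replicate number as a block and fits without libraries. In simulated counts for this comparison (15008 genes), edgeR called 63 of the 100 with a 2-fold change, 94 of the 100 with a 4-fold change and 8 with none. DESeq2 called 73, 95 and 45, and limma-voom 61, 95 and 8. Each gene was simulated independently of the others, without the rod, bipolar and lens differences that real libraries of a group share over many genes. These rates thus need not hold for the real libraries.

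The members, lists and left-out libraries were chosen with earlier results of these data known. Values are given by a rule for Kcnk2, Kcne2, the TREK relatives Kcnk4 and Kcnk10, the 4 smallest p and the 2 highest levels of each class, and members whose groups do not overlap, and other members were named to account for the family after their values were seen. Some genes are counted in these sums but not reported here by name or drawn. The labels do not say that libraries came from separate animals, so p-values reflect only how these libraries differ, which may be technical. Every pair of libraries within a group differed by more than sampling noise. Intervals and floors of counts cover counting error only. Figures used Python 3.11.15 and matplotlib 3.10.9.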

Additional observations from a re-analysis of the deposited data

Results flagged for a closer look

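In 7 of 148 groups of 4 libraries examined over the 74 tested genes, 1 library lay far from the other 3 (Dixon's test), and chance alone gives about 1 in 20. Among the TET-MYCN libraries, TET-MYCN 2 was highest for Kcna6 (36.4 CPM, against 24.4 to 26.1 CPM) and for Kcnd3 (83.1 CPM, against 55.8 to 58.4 CPM). TET-MYCN 4 was highest for Kcnk1 (75.8 CPM, against 49.3 to 53.1 CPM), and TET-MYCN 3 was lowest for Kcnq3 (0.787 CPM, against 3.58 to 4.08 CPM). Among the Rb null libraries, Rb null 3 was highest for Kcna1 (29.2 CPM, against 23.2 to 23.5 CPM) and Kcnj8 (5.51 CPM, against 3.10 to 3.499 CPM) and lowest for Kcnmb4 (17.5 CPM, against 21.7 to 21.9 CPM).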

How the results depend on the processing

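Kcnk2 kept its direction in all 18 alternatives and Kcne2 stayed negative and uncalled in all of them. Kcnk2 lost its call with limma-voom (log2 fold change 2.17) and without Rb null 2 and 3 (2.16), the libraries richest in lens crystallin reads. The call was also lost without any 1 of Rb null 1 to 4 and TET-MYCN 1 and 4, and was kept in 10 of the 18 alternatives. With 1 library left out the log2 fold change ranged from 2.06 to 2.38. Members called as higher, 1 in the fit as reported, were 2 with DESeq2 (Kcnk2 and Kcnn4), 0 with limma-voom, 0 without Rb null 2 and 3, 2 without Rb null 1 and TET-MYCN 3, the libraries richest in multiply aligned reads, and 0 to 3 with 1 library left out (3 without TET-MYCN 3). Members called as lower were 6 with DESeq2 (Kcnab2, Kcng4, Kcnh2, Kcnh6, Kcnip2 and Kcnma1) and 0 to 1 with 1 library left out. Calls over all genes moved in the same settings, from 9 as reported to 530 with DESeq2, 230 without TET-MYCN 3, 132 without TET-MYCN 2, 41 without Rb null 1 and TET-MYCN 3, 0 with limma-voom or without Rb null 2 and 3, and 0 or 1 with any other single library left out. At an unadjusted p under 0.05, the 5 higher members (8.06% of all genes) became 3 without Rb null 2 and 3 (4.12%), 11 without Rb null 1 and TET-MYCN 3 (1585 of 15057 genes), and 2 to 14 with 1 library left out (2 without Rb null 3 or 4, with 5.22% and 5.56% of all genes, and 14 without TET-MYCN 3, with 13.1%). The 21 lower members (7.72% of all genes) became 13 without Rb null 2 and 3 (4.29%) and 12 to 26 with 1 left out (12 without Rb null 3, with 3.89%, and 26 without TET-MYCN 2, with 8.16%). Members whose groups do not overlap numbered 7 higher and 14 lower without Rb null 2 and 3 (8.71% and 9.36% of all genes), 11 and 17 without Rb null 1 and TET-MYCN 3 (12.4% and 12.3%), and 2 to 12 and 9 to 22 with 1 left out (12 higher without TET-MYCN 3, with 11.9% of all genes, and 22 lower without TET-MYCN 2, with 6.84%), where fewer libraries by themselves make separation easier. The median of the two-pore genes was -0.0189 without Rb null 2 and 3, against -0.23. The causes of the other shifts were not tested.

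Small fold changes changed sign. With 1 library left out, log2 fold changes ran from -0.15 to 0.51 for Kcna3, -0.16 to 0.22 for Kcna4, -0.0711 to 0.20 for Kcnb2, -0.17 to 0.28 for Kcne1l, -0.0702 to 0.13 for Kcnip3, -0.33 to 0.0255 for Kcnip4, -0.20 to 0.15 for Kcnj11, -0.0409 to 0.45 for Kcnj2, -0.21 to 0.27 for Kcnj6, -0.32 to 0.062 for Kcnk5, -0.19 to 0.0861 for Kcnn3, -0.0792 to 0.18 for Kcnq1ot1 and -0.14 to 0.0857 for Kcnt2. Without Rb null 2 and 3 they were -0.0312 for Kcne1l, -0.0323 for Kcnj11, 0.23 for Kcnj6, 0.0156 for Kcnk12, -0.0774 for Kcnn1, 0.15 for Kcnn3, 0.12 for Kcnrg and 0.073 for Kcnt2. Without Rb null 1 and TET-MYCN 3 they were -0.0847 for Kcne1l, 0.19 for Kcnj6 and 0.0296 for Kcnt2. With total counts alone Kcnj6 was at 0.0022 and Kcnt2 at 0.0029. Kcna3 was at -0.19 with limma-voom and -0.10 with the replicate block.

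Same-numbered libraries did not deviate together from their group means (r of -0.29 to -0.04 across genes). Whether they share a litter or batch is not in the labels used here and cannot be read from these r values. Only the number defined the replicate block. With it Kcnk2 was at 2.17 (adjusted p = 0.0361), Kcne2 at -1.0045 (adjusted p = 0.365), 1 member was called, of 3 genes in all, and 4 higher and 17 lower members had an unadjusted p under 0.05 (6.18% and 6.05% of all genes). Measured on the longest transcript, Kcnk2 and Kcne2 ranked 35 and 17 of 94 by level, against 35 and 14. Depth limits the members nearest 0.202 CPM, which is 3 counts in the shallowest library.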
